A study of Mus musculus with 6 samples.

Results

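Macrophages grown from the bone marrow of C57BL/6 mice with GM-CSF, and left overnight with only the solvent DMSO, were described here from 3 RNA-seq libraries out of 6 in the study. These were all libraries labelled DMSO, and every gene in the count and FPKM tables was ranked by its mean FPKM (fragments per kilobase of transcript scaled to library size) over them. The study set these cultures beside others that received a RIP1 inhibitor, and those 3 libraries were not used. DMSO was added on day 7 of culture in complete RPMI medium with GM-CSF, and 1 ug of total RNA per library was prepared with a TruSeq kit. The labels give no sex or age and do not say whether the libraries came from separate mice or cultures, so each SD below is the spread between 3 libraries, which may be technical. In such bulk RNA, fewer cells of a type and less RNA per cell cannot be told apart.

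GM-CSF is a growth factor that turns marrow precursors into macrophages and dendritic-like cells. It binds a receptor made of a specific alpha chain (Csf2ra) and a shared beta chain (Csf2rb), which signals through Jak2 and Stat5. Mature macrophages engulf and digest particles in lysosomes, present peptides on MHC class II molecules, and secrete proteases and chemokines. In the lung, GM-CSF is needed for alveolar macrophages, which depend on the nuclear receptor Pparg.

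The libraries held 44075389, 40264902 and 44862310 counts assigned to genes in replicates 1, 2 and 3. Of 52459 genes in the table, 10810 (20.6%) had a mean of at least 1 FPKM, 4331 reached 10, 417 reached 100 and 30 reached 1000. At the other end, 27171 genes (51.8%) had 0 counts in all 3 libraries, which allows up to 3 counts over the 3 libraries together, counting error only. Protein-coding genes held 83.1% ± 0.536 (SD, n = 3) of the summed FPKM and 95.1% ± 0.153 of the counts. Among the 21526 protein-coding genes, 45.4% reached 1 FPKM and 27.3% had no count. Of 26456 genes annotated as any other type, pseudogenes and immune receptor segments included, 3.11% reached 1 FPKM and 68.9% had no count.

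A few genes held most of the signal. Lyz2, which encodes the lysozyme of macrophages, alone took 9.82% ± 0.681 (SD, n = 3) of the summed FPKM. The 10 highest genes took 31.2% ± 0.988, the 100 highest took 50.9% ± 0.579, and the 1000 highest took 74.4% ± 0.380. In the separate libraries 94, 81 and 92 genes were enough to reach 50%, and replicate 2 was the most concentrated. Counts, which grow with transcript length, were spread more widely: 543 genes were needed for 50% of the counts, and the 100 genes highest by counts held 30.4% ± 0.312. Counting protein-coding genes alone, 169 genes held 50% of their summed FPKM.

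**Figure D1:**
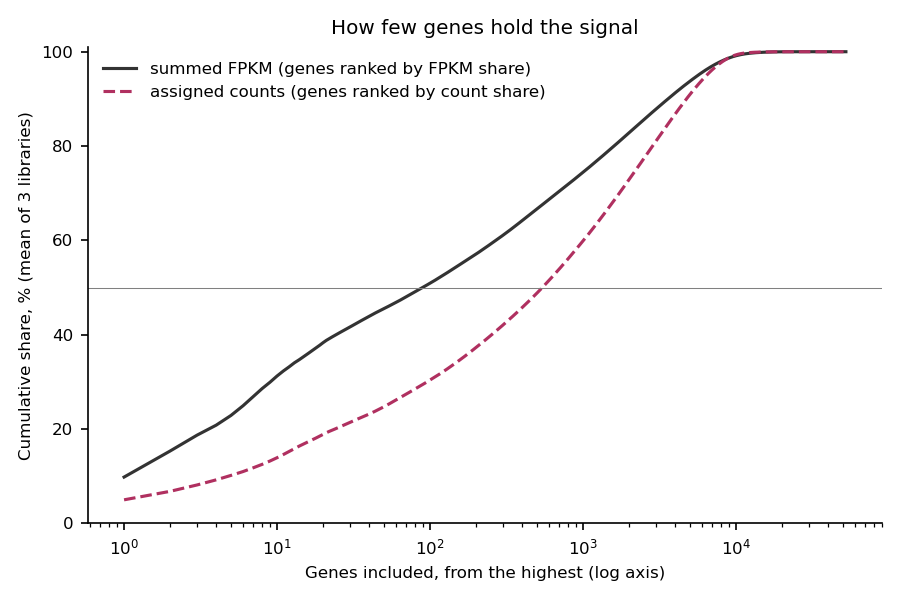
Cumulative share of the signal (y axis, %, mean of 3 DMSO libraries) against the number of genes included from the highest (x axis, log scale). The solid line for summed FPKM passes 50% at 90 genes, and the dashed line for assigned counts passes it at 543 genes.

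The markers given for these cells were all present, in an order from secreted lysozyme down to surface receptor. Lyz2 (mm10 chr10:117277331-117282321, minus strand) was at 36866, 41003 and 35340 FPKM in replicates 1, 2 and 3. Ccl6, a CC chemokine (chr11:83587882-83593087, minus strand), was at 7684, 7382 and 7406 FPKM. Cd74, the invariant chain that guides MHC class II molecules, was at 2343, 2334 and 2802 FPKM, highest in replicate 3. The elastase Mmp12 (chr9:7344381-7369499, plus strand) varied least of the 6, at 1293, 1306 and 1285 FPKM. H2-Ab1, the beta chain of MHC class II I-A (chr17:34257689-34269419, plus strand), was at 516, 515 and 663 FPKM. Mrc1, the mannose receptor (chr2:14229392-14332057, plus strand), was at 140, 133 and 161 FPKM. Neighbours in this order did not overlap between libraries, so the order of levels was the same in each. Mmp12 ranked 25th by FPKM but 5th by counts, since its implied transcript length is 7283 bases against 1324 for Lyz2.

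The stretches of DNA just before the starts of 5 highly expressed protein-coding genes are shown. They are the markers Lyz2, Ccl6 and Mmp12, with Ctss and Chil3, which ranked 6th and 36th by FPKM. Some genes above Chil3, such as Psap (8th) and Spp1 (14th), are not shown. The sequences are RefSeq windows on GRCm38.p6, printed 5′ to 3′ on the gene's strand and ending before the first annotated base of the gene. Capitals mark GGAAGT or its reverse complement ACTTCC, the core bound by ETS factors such as PU.1, with the longer ACTTCCTC in capitals where it occurs, and GGGCGG, the GC box. The windows are Lyz2 chr10:117282322-117282422, Ctss chr3:95526636-95526785, Ccl6 chr11:83593088-83593237, Mmp12 chr9:7344247-7344380 and Chil3 chr3:106167565-106167714.
Lyz2: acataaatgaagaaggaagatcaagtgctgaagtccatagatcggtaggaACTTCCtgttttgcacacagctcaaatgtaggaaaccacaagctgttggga
Ctss: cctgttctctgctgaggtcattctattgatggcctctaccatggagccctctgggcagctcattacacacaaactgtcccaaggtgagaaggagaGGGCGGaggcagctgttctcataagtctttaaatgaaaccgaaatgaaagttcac
Ccl6: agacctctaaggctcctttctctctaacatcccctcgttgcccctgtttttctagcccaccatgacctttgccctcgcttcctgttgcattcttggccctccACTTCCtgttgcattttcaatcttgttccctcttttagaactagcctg
Mmp12: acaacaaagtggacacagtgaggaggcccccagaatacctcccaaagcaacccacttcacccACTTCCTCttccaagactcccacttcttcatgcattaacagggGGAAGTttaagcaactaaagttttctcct
Chil3: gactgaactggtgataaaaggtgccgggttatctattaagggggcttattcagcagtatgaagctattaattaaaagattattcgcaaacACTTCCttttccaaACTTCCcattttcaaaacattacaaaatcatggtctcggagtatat

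Among 16316 coding genes with a RefSeq window of 300 bases (250 before to 50 after the start), GGAAGT on either strand occurred in 25.5%. It was found in 60% of the 15 macrophage identity genes with a window, in 47.0% of the 66 cytosolic ribosomal protein genes, in 42.9% of the 28 lysosomal genes, in 40% of the 100 highest coding genes, in 31.5% of the 7848 genes at 1 FPKM or more, and in 20.2% of the 4232 genes with no count. The longer GAGGAAGT, which contains GGAAGT, occurred in 7% of the 100 highest and in 3.14% of all. GGGCGG on either strand was in 66.0% of the windows of genes at 1 FPKM or more against 15.4% of those with no count. CG dinucleotides followed the same split, with a median of 21 per window in genes at 1 FPKM or more and 2 in genes with no count. The 15 macrophage identity genes had a median of 4 CG dinucleotides, and 66 cytosolic ribosomal protein genes had a median of 21. TATAAA between 45 and 20 bases before the start was in 5% of the 100 highest, in 1.11% of genes at 1 FPKM or more, in 6.43% of genes with no count and in 2.84% of all windows. These letter matches are descriptions and were given no test.

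Besides Lyz2, the highest values belonged to short non-coding RNAs. Rn7sk, the 7SK RNA that holds back transcription elongation (chr9:78175303-78175633, minus strand), was at 19464, 22734 and 21532 FPKM, second to Lyz2 in each library. It held 5.52% of the summed FPKM but 0.707% of the counts. Rpph1, the RNA of ribonuclease P, was at 10878, 14008 and 13926 FPKM, and Rmrp, the RNA of the related enzyme RNase MRP, at 6453, 9079 and 8907 FPKM. Both were lowest in replicate 1. Gm23935, a predicted gene of 57 bases annotated as a miRNA (chr16:11144125-11144181, plus strand), ranked 13th by FPKM and 890th by counts, and all of its 31-base words also occur in transcripts of other genes. For Rn7sk 72.8% of such words do, and for Rpph1 70.2%, so the placing of their reads is uncertain. The 7SK sequence is shown because it stands second in the ranking, as bases 1 to 120 of its 331 in GENCODE.
Rn7sk: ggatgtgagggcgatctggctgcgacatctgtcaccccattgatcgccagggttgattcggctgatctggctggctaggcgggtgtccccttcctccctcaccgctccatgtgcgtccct

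**Figure D2:**
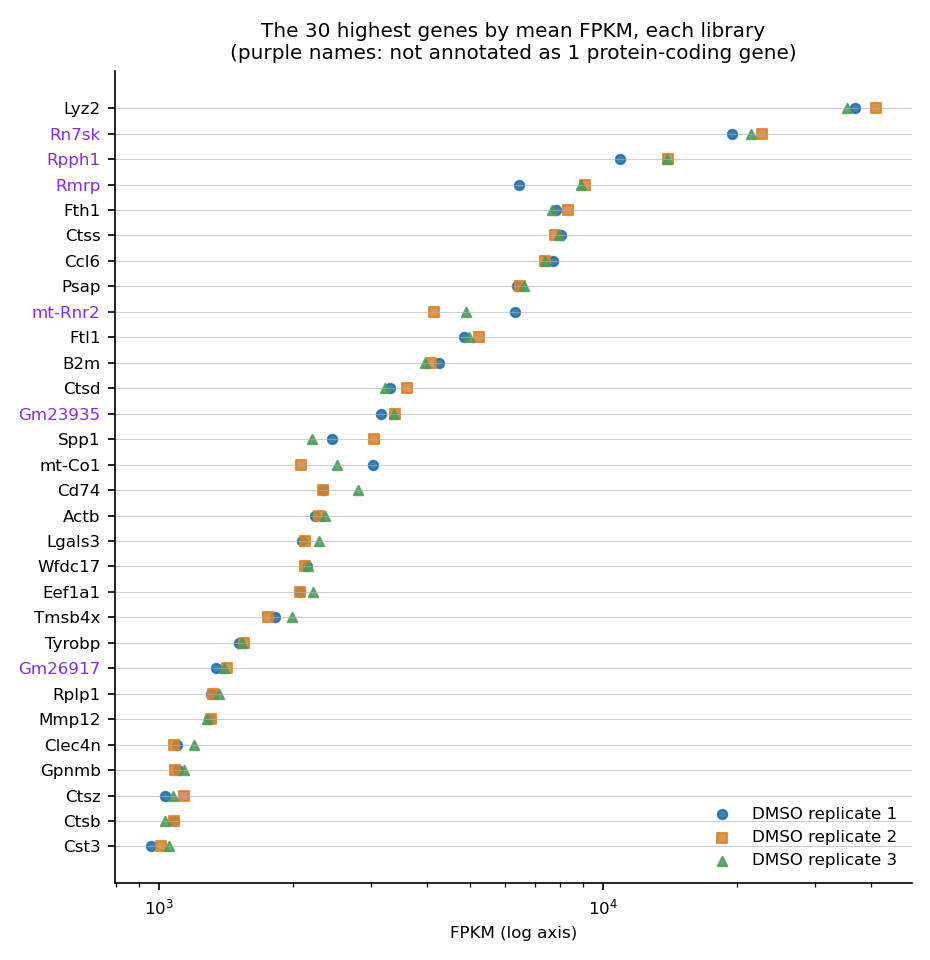
FPKM (x axis, log scale) of the 30 highest genes by mean FPKM (y axis) in each DMSO library, 1 symbol per library. Lyz2 lies alone at 35340 to 41003 FPKM, and the symbols of most genes lie close together, while mt-Rnr2, mt-Co1 and Rmrp are spread most widely.

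Iron storage, the lysosome and antigen presentation were each represented among the highest protein-coding genes, as were the chemokine Ccl6, Spp1, actin and translation. The 89 cytosolic ribosomal protein genes held 4.33% of the summed FPKM. Of these, 55 reached 100 FPKM, and Rplp1 was highest at 1330. The elongation factor Eef1a1 was at 2123 FPKM. Fth1 and Ftl1, the heavy and light chains of ferritin, were at 7930 ± 348 and 5029 ± 192 FPKM (SD, n = 3), and ferritin and the other 15 genes of iron and haem handling held 3.46% of the summed FPKM. The iron exporter Slc40a1 was at 4.47 FPKM and the haem scavenger receptor Cd163 at 0.173. B2m, the light chain of MHC class I, was at 4257, 4091 and 3959 FPKM.

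Of 36 lysosomal genes listed, 35 reached 1 FPKM and 21 reached 100, and together they held 6.61% of the summed FPKM and 6.33% of the counts. Ctss, the cathepsin that trims the invariant chain, led with 8033, 7773 and 7959 FPKM. Psap, the precursor of the saposins that help degrade sphingolipids, followed with 6385, 6504 and 6641 FPKM. Cathepsin D (Ctsd) was at 3319, 3621 and 3233 FPKM. The first 3 of these differed little between libraries, and their order was the same in each. Cathepsins Z and B (Ctsz and Ctsb) were near each other, at 1080 ± 52.9 and 1064 ± 29.5 FPKM, and their order changed between libraries. Ctsw, a cathepsin of cytotoxic lymphocytes, had no count. Of the 25 genes of the vacuolar proton pump and its partners, which acidify the lysosome, 17 reached 1 FPKM, with Atp6v0d2 highest at 326, 303 and 322 FPKM.

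Antigen presentation was high for both classes. All 20 listed genes of the MHC class I route reached 1 FPKM, as did 12 of 14 of the class II route. H2-Aa, the alpha chain of I-A, was at 623, 611 and 780 FPKM, and H2-Eb1 was at 490, 490 and 627 FPKM. The classical class II genes shared 1 pattern: replicates 1 and 2 were level and replicate 3 was higher. Ciita, the master regulator of class II genes, was at 14.6 FPKM. H2-D1, a class I heavy chain, was at 974, 1036 and 939 FPKM and had replicate 2 highest instead. The exceptions at the bottom of the class II list were H2-Eb2 at 0.147 FPKM and the pseudogene H2-Ea-ps at 0.02.

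Receptors for the growth factors were expressed, their ligands mostly not. Csf2rb was at 298, 290 and 338 FPKM and Csf2ra at 120, 116 and 123. Csf1r, the receptor for M-CSF, was as high as Csf2rb, at 293, 319 and 289 FPKM, and the ranges of both overlap. Csf2rb2, a near copy of Csf2rb that shares 30.1% of its 31-base words with other transcripts, was at 40.6 FPKM. Csf1 itself was at 13.7 FPKM, while Il34 and Csf2, the gene for GM-CSF, were at 0.0367 and 0.01. Among genes that cytokine signalling through Jak2 and Stat5 is known to induce, the kinase Pim1 was at 138, 137 and 137 FPKM, among the 10 steadiest genes at 20 FPKM or more, and Cish at 27.7, 26.1 and 28.1.

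The transcription factors were those of myeloid cells. Cebpb was highest of the 48 listed at 218, 269 and 230 FPKM, followed by Irf5 at 110, 111 and 114 and Atf3 at 110, 116 and 109. Spi1, which encodes PU.1, was at 97.1, 102 and 102 FPKM. Within families the share of the highest member differed. Cebpb held 69.7% of the summed FPKM of the C/EBP genes, Irf5 held 53.4% of the interferon regulatory factors, and Stat6 held 45.7% of the STATs. Pparg, at 9.28, 8.99 and 10.5 FPKM, held 69.8% of its 3-gene family, and Ppara was listed at 0.0133. Of the factors of other lineages, Hnf4a, Neurod1, Myod1 and Sox2 had no count in any library, and Pax5 had 0, 1 and 0.

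Genes known from alveolar macrophages were present beside a gap. Of 18 listed, 14 reached 1 FPKM and 7 reached 100. Chil3, the chitinase-like protein Ym1, was at 819, 718 and 1015 FPKM and made up 99.9% of its 7-gene family. Itgax, the CD11c integrin chain, was at 246, 244 and 275 FPKM, just above the CD11b chain Itgam at 189, 207 and 206, with no overlap. Fabp5, a fatty acid carrier, was at 239, 247 and 254 FPKM and Fabp4 at 30.96. Ear2, an eosinophil-type ribonuclease that shares 31-base words with its own gene family, was at 143, 138 and 184 FPKM. Siglecf, a sialic acid receptor, was at 22.7, 24.8 and 23.5 FPKM. Marco, a scavenger receptor, was the only one of the 25 macrophage identity genes below 1 FPKM, with 14, 8 and 26 counts. Markers of other resident macrophages were near or at 0: Clec4f, Sall1 and Sall3 had no count, and Timd4, Lyve1 and Vsig4 were at 0.01, 0.01 and 0.0333 FPKM. Of 18 dendritic cell genes 12 (66.7%) reached 1 FPKM, against 45.4% of all protein-coding genes, and 4 reached 10. Their sum of 1090, 1090 and 1278 FPKM was mostly Ccl17 and Itgax, which other lists hold too. Cd24a came next, at 34.6, 28.4 and 44.0 FPKM. Ccr7, the receptor that guides cells to lymph nodes, was at 7.69, 7.08 and 9.81 FPKM, while the dendritic cell factor Zbtb46 was at 0.843 and Flt3 and Xcr1 were at 0.133 and 0.03. Of 10 monocyte genes 7 reached 1 FPKM, among them the chemokine receptor Ccr2 at 48.8, 40.3 and 60.5 and Ly6c2 at 34.2, 33.8 and 37.8.

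Programmes of activation were split gene by gene. Of 19 genes linked to alternative activation by IL-4, 15 reached 1 FPKM, with Chil3, the chemokine Ccl17 at 765, 775 and 900 FPKM, and the lectin Mgl2 at 154, 146 and 212. All 3 were highest in replicate 3. Yet Arg1, the arginase often used to define that state, had 0.01, 0 and 0.17 FPKM, and Retnla was at 0.0133. Nearly all arginase message was the mitochondrial form Arg2, at 20.4, 21.5 and 19.1 FPKM, 99.7% of the pair. Of 21 genes of classical activation 11 (52.4%) reached 1 FPKM, near the 45.4% of all protein-coding genes. Among them Tnf was at 28.5, 28.9 and 27.2 FPKM and Acod1, which makes itaconate, at 20.9, 25.1 and 17.1. The inducible nitric oxide synthase Nos2 was at 0.47, 1.04 and 0.18 FPKM, and Il6 and Il12b were at 0.193 and 0.617. Constitutive Ptgs1 held 97.9% of the prostaglandin synthase pair, and Ptgs2 was at 0.89, 1.79 and 0.3 FPKM. Nos2, Ptgs2 and Acod1 were each highest in replicate 2 and lowest in replicate 3. Of 24 interferon-stimulated genes 23 reached 1 FPKM, with a median of 7.79. The 2 above 100 were Ifitm3 at 565, 649 and 485 FPKM and Bst2 at 121, 133 and 118, both membrane proteins that restrict viruses and both highest in replicate 2. Of 18 type I interferon genes 16 had no count.

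The secreted proteins were led by a few. Of 36 chemokines 16 (44.4%) reached 1 FPKM, near the 45.4% of all protein-coding genes, and 6 had no count. Ccl6 made up most of the 2.37% of summed FPKM that the chemokines held. Ccl9 was at 378, 394 and 379 FPKM, Ccl3 at 133, 137 and 111 and Ccl2 at 57.1, 67.2 and 52.5. Ccl3 and Ccl2 shared an order, with replicate 2 highest and replicate 3 lowest. The lymphoid chemokines Ccl19 and Cxcl13 had no count, and the interferon-induced Cxcl9, Cxcl10 and Cxcl11 were all under 1 FPKM. Spp1, the matrix protein osteopontin, was the highest of 48 cytokines and growth factors, at 2457, 3047 and 2209 FPKM. Among the interleukins, Il1a was at 8.58 FPKM, Il18 at 5.07 and Il1b at 4.50, while Il10 was at 0.0133 and Ifng, Il3, Il17a, Il9 and Il21 had no count. Besides Mmp12, the collagenase Mmp8 was at 564, 538 and 604 FPKM and Mmp19 at 97.4, 107 and 93.2. The gelatinase Mmp9 was at 0.63 FPKM.

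Surface receptors for uptake were spread over several lists. The 28 C-type lectin and Siglec receptors held 0.645% of the summed FPKM and 0.575% of the counts. The 22 phagocytic and scavenger receptor genes held 0.506% and 0.885%, led by Cd68 at 474 FPKM. Clec4n (Dectin-2) was at 1099, 1081 and 1197 FPKM and Clec7a (Dectin-1) at 622, 560 and 636, both receptors for fungal sugars. Fcgr3 held 74.0% of the Fc gamma receptors, at 497, 515 and 561 FPKM, with the inhibitory Fcgr2b at 103. Axl, a receptor for apoptotic cells, held 86.1% of its 3-gene family at 261, 270 and 275 FPKM, and its relative Mertk was at 38.6. The 3 chains of the complement starter C1q were all highest in replicate 3: C1qb was at 654, 654 and 799 FPKM, C1qa at 266, 265 and 376 and C1qc at 277, 276 and 337. Of the Toll-like receptors, Tlr2 was highest at 126, 128 and 132 FPKM, then Tlr13 at 79.2, 82.0 and 77.5 and Tlr4 at 70.7, 61.1 and 62.4, and Tlr5 was at 0.09. All 25 genes listed for death signalling around RIP1 reached 1 FPKM, with the TNF receptor Tnfrsf1b at 162, 169 and 151 FPKM, Casp8 at 34.2, 32.4 and 37.3, Ripk1 at 17.9, 19.3 and 18.7, Ripk3 at 17.1, 18.8 and 17.9, and Mlkl at 11.2.

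In some metabolic isozyme sets 1 member held nearly all of the FPKM, and other sets were shared. All 22 glycolysis genes reached 1 FPKM. Pkm was at 383, 452 and 361 FPKM and made up 99.98% of pyruvate kinase, Aldoa made up 90.7% of aldolase, and Ldha 93.9% of lactate dehydrogenase. Hexokinase was shared, with Hk3 at 50.6%, Hk2 at 30.3% and Hk1 at 19.0% of the set. Phosphofructokinase was shared too, with Pfkp at 49.2% and Pfkl at 42.8%. The glucose transporters Slc2a1 and Slc2a6 were level, at 32.8 ± 2.51 and 31.04 ± 5.35 FPKM, which differ by less than the spread between libraries. Cybb, the catalytic subunit of the phagocyte NADPH oxidase, was at 269, 293 and 253 FPKM, and Duox1, Duox2 and Nox3 had no count. Apoe, the lipid carrier, led the 28 lipid genes at 950, 1152 and 896 FPKM, and the cholesterol exporter Abcg1 was at 272, 280 and 284. Actb, Lgals3 and Tmsb4x, for actin, galectin-3 and thymosin beta 4, were at 2303 ± 61.6, 2172 ± 105 and 1859 ± 119 FPKM and led 39 cytoskeleton and motility genes, all of which reached 1 FPKM.

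Messages of dividing cells were present. Of 32 cell cycle genes 31 reached 1 FPKM, with Pcna, the clamp of DNA polymerase, at 62.5, 69.7 and 66.4 FPKM, Top2a at 22.9, 24.5 and 26.1 and Mki67 at 18.8, 18.5 and 19.2. Replication-dependent histone genes, whose messages lack the poly(A) tail, were plainly counted: 58 of 70 reached 1 FPKM and 8 reached 100. Hist1h4h was at 177, 181 and 204 FPKM and Hist1h4f at 147, 148 and 187. Replicate 3 had the highest histone sum, 2974 FPKM against 2485 and 2576. Members of this family share sequence, with 53.2% of the 31-base words of Hist1h4f found in other transcripts, so single members are uncertain.

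**Figure D3:**
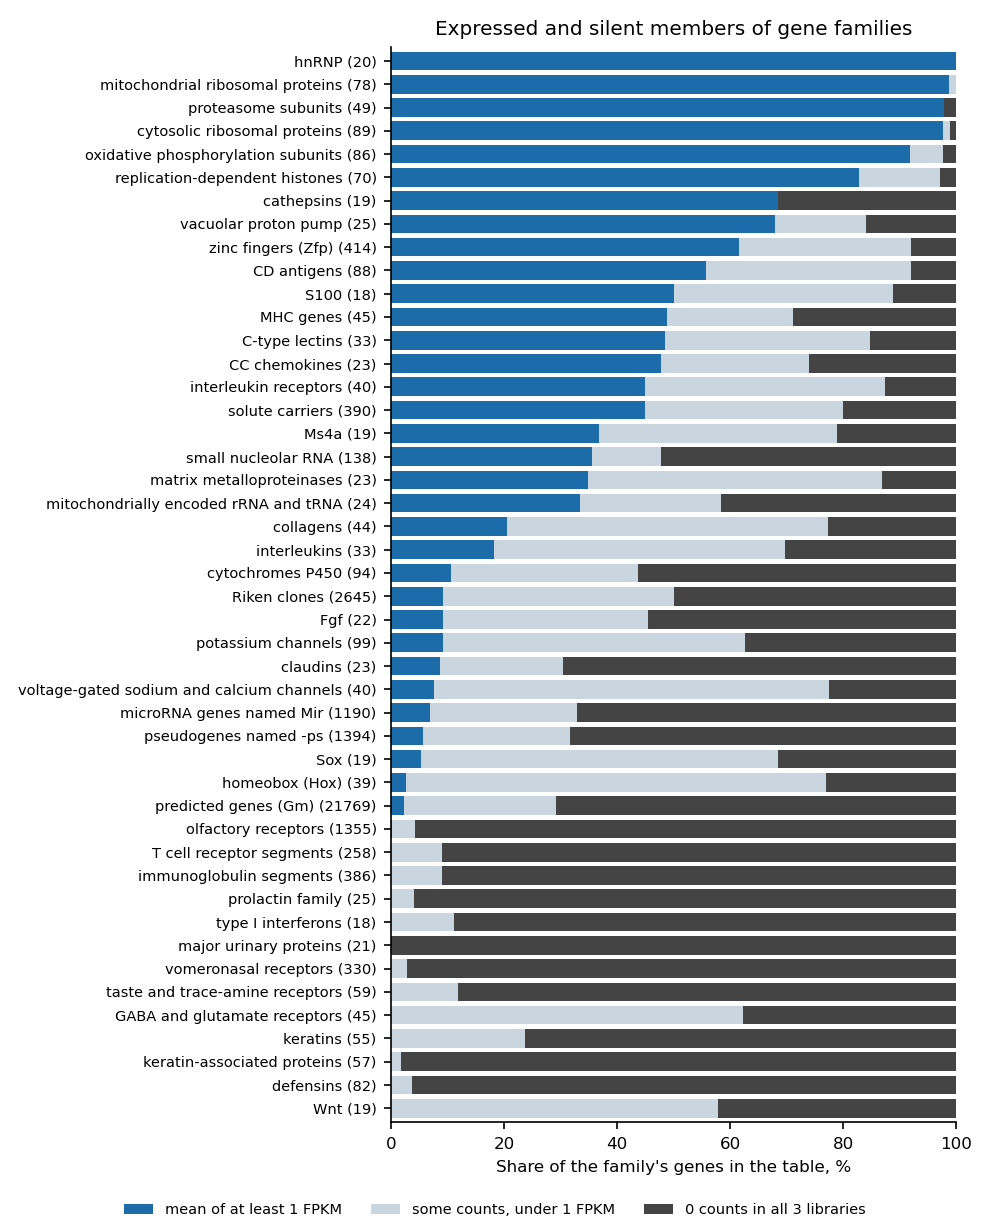
Share of each gene family (x axis, %) with a mean of at least 1 FPKM, with some counts but less, or with 0 counts in all 3 DMSO libraries, for families of 15 or more genes (number in brackets). The families run from 100% expressed (hnRNP proteins) to the major urinary proteins, of which all 21 had no count.

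Some large gene families were at or near 0. Of 1355 olfactory receptor genes, 1297 had no count in any library and 1 reached 1 FPKM. That 1 gene was Olfr111 (chr17:37508030-37532449, plus strand), at 4.36, 3.33 and 3.43 FPKM from 514, 355 and 409 counts. Its neighbour Olfr110 (chr17:37492468-37500207, plus strand) came next at 0.91, 1.01 and 1.04 FPKM, and each shares 31-base words with the other. Of 330 vomeronasal receptors 321 had no count, as did 79 of 82 defensins, 56 of 57 keratin-associated proteins, 42 of 55 keratins and all 21 major urinary proteins, and none of these families had a member at 1 FPKM. No Wnt gene and no GABA or glutamate receptor gene reached 1 FPKM. Among 1190 genes named as microRNAs 81 reached 1 FPKM, and Mir223 had no count, though the reads of such short genes in this library type do not measure mature microRNA.

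Some low values belonged to the mitochondrial genome, whose messages encode parts of the respiratory chain. Of its 13 messages 9 reached 1 FPKM, over a wide range of levels. mt-Co1 was at 2546 ± 472 FPKM, mt-Nd1 at 470 ± 125 and mt-Cytb at 326 ± 69.2. Yet mt-Co3 was at 1.49 FPKM, mt-Nd3 at 1.38, mt-Co2 at 0.703, mt-Atp6 at 0.35 and mt-Nd4l at 0.05. For those 5, between 98.1% (mt-Nd3) and 100% (mt-Co2) of the 31-base words also occur in transcripts of other genes, chiefly nuclear pseudogene copies such as Gm28661 and Gm10925, against 0% for mt-Nd1 and 6.55% for mt-Cytb. mt-Co1 and mt-Nd4 lay between, with 63.9% and 62.8% shared and 2546 and 62.8 FPKM. mt-Atp8 was also low, at 0.337 FPKM, with 7.47% shared. The part of shared sequence in these levels was not tested. A low value of a gene with near-identical copies is uncertain in these tables, which do not show how reads with several matches were counted. The same holds for Tuba1b, a main tubulin, at 30.04 FPKM with 78.7% of its words shared.

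**Figure D4:**
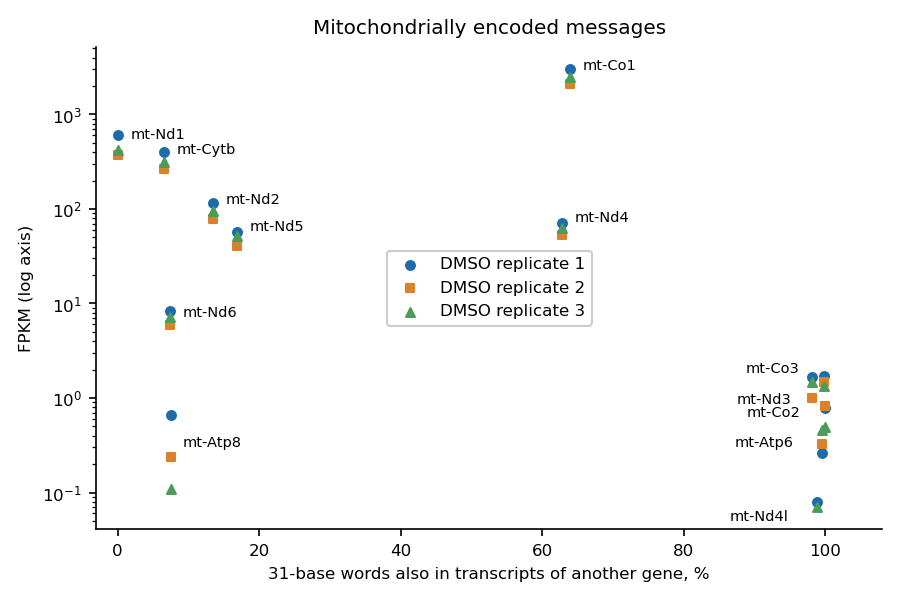
FPKM (y axis, log scale) of the 13 mitochondrially encoded messages in each DMSO library against the share of their 31-base words that also occur in transcripts of another gene (x axis, %). The 5 messages with at least 98.1% shared (mt-Nd3 the least) lie below 2 FPKM, as does mt-Atp8, and replicate 1 is highest for the abundant messages; mt-Nd4l in replicate 2, listed at 0, has no point.

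Markers of several other cell types were mostly at or near 0, with named exceptions. The osteoclast list was not: 7 of 10 genes reached 1 FPKM and they summed to 530, led by Atp6v0d2, named above for the proton pump, and Ctsk. Of 12 T cell genes only Cd28, a costimulatory receptor, reached 1 FPKM, at 11.2, 11.9 and 9.86, while Cd3d, Cd3e, Cd3g and Cd8a were all at or below 0.03 FPKM on average. Of 12 B cell genes Ighm and Cd22 reached it, at 12.4 and 7.52 FPKM, while Cd79a and Ms4a1 were at 0.03 and 0.00333. Cdh1, E-cadherin, was at 27.3, 24.3 and 34.2 FPKM, and Krt5, Krt8 and Krt14 had no count. Kdr and Vwf, listed for endothelium, were at 15.2 and 13.6 FPKM, with Cdh5 at 1.06 and Cldn5 at 0 counts. Of 10 stem and progenitor genes 2 reached 1 FPKM, Ly6a and then Kit. Kit, the stem cell factor receptor, was at 20.8, 18.1 and 18.4 FPKM, with Cd34 at 0.883. Mbp, known from myelin, was at 12.7, 13.9 and 11.5 FPKM. Of 8 megakaryocyte and platelet genes 3 reached 1 FPKM, with Pf4 highest, and the list summed to 26.6 FPKM. Which cells carried these exceptions was not tested. No gene of 7 hepatocyte, 7 muscle or 6 adipocyte genes reached 1 FPKM. Genes of the Y chromosome were expressed, with Ddx3y at 20.77, 19.15 and 20.04 FPKM and Eif2s3y at 18.2, 17.0 and 17.3, while Xist had 1, 0 and 0 counts.

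The summed levels of some lists of other cell types varied between libraries. Neutrophil and precursor genes, 13 of 18 at 1 FPKM or more, summed to 1209, 887 and 1509 FPKM. Mmp8, which the protease list holds too, was the highest of them at 564, 538 and 604 FPKM and varied less than the sum. S100a9 was at 332, 192 and 489 FPKM, S100a8 at 191, 104 and 259, and the granule gene Ngp at 63.8, 21.7 and 80.3, each lowest in replicate 2 and highest in replicate 3. Ly6g, Mpo and Retnlg, defining genes of that lineage, were at 0.82, 0.287 and 0.22 FPKM. Stromal genes, 14 of 17 at 1 FPKM or more, summed to 47.5, 81.6 and 24.7 FPKM. Acta2, smooth muscle actin, was at 12.3, 20.9 and 7.07 FPKM and Col1a2 at 6.28, 11.3 and 2.84, each highest in replicate 2 and lowest in replicate 3. This was the opposite order to the neutrophil genes. The mast cell and basophil list summed to 35.2, 22.9 and 32.8 FPKM and the eosinophil list to 29.5, 27.5 and 37.7, both lowest in replicate 2. Their highest members were Kit and Siglecf, both named above for other lists, and Siglecf itself was highest in replicate 2. Next highest were Cpa3 and Prss34 in the mast cell and basophil list, and Prg2 and Epx in the eosinophil list. For members at 1 FPKM or more, the median log2 deviation from each gene's own mean was taken. In replicates 1, 2 and 3 it was 0.579, -1.14 and 0.392 for the mast cell and basophil list. For the eosinophil list it was 0.0413, -0.633 and 0.591. The part of such cells in these sums, and in the other differences between replicates, was not tested.

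**Figure D5:**
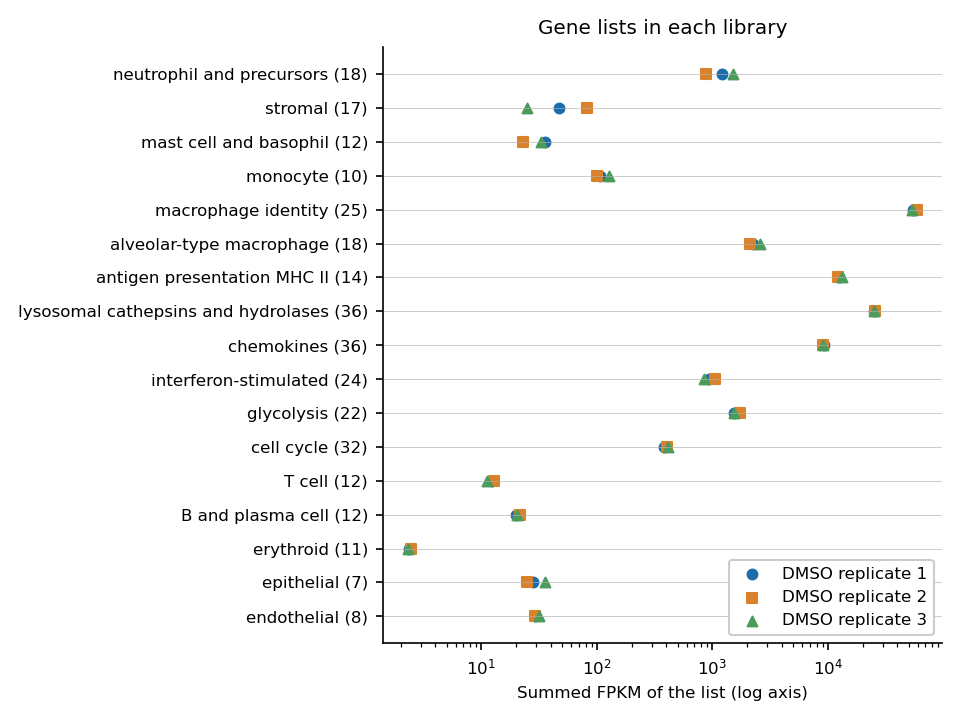
Summed FPKM (x axis, log scale) of 17 gene lists (number of genes in brackets) in each DMSO library, 1 symbol per library. The symbols of the macrophage, lysosomal and chemokine lists nearly coincide, while the neutrophil list runs from 887 to 1509 FPKM and the stromal list from 24.7 to 81.6 FPKM.

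The libraries were otherwise close. The common biological coefficient of variation, edgeR's estimate of replicate spread beyond counting noise, was 8.69% over 14143 genes. It was 12.1% without replicate 1, 6.62% without replicate 2 and 7.04% without replicate 3. Over the 2391 genes at 20 FPKM or more the median coefficient of variation was 3.64%. The steadiest of these included Ppp1r18 at 23.2, 23.1 and 23.2 FPKM and Ctbp1 at 36.3, 36.4 and 36.3. The most variable was Rn7s1, a signal recognition particle RNA, at 886, 93.3 and 88.1 FPKM, all of whose 31-base words occur in other transcripts, among them its copy Rn7s2 at 923, 894 and 1042. Next was Lyz1, the intestinal copy of lysozyme, at 31.3, 111 and 27.6 FPKM, and 34.2% of its words are shared with other transcripts, Lyz2 among them. Haptoglobin (Hp) was at 19.1, 38.8 and 10.9 FPKM. Lyz1 and Hp were highest in replicate 2 and lowest in replicate 3, an order also found in the stromal genes and in others such as Lyz2 and Spp1. Mitochondrially encoded genes took 1.729%, 1.139% and 1.358% of the counts, most in replicate 1. Between pairs of libraries, 98 to 172 of the 10810 genes at 1 FPKM or more differed by 2-fold or more, most between replicates 2 and 3.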

How the data were processed

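RNA-seq of 6 libraries was deposited; the 3 DMSO libraries were used and the 3 RIP1 inhibitor libraries were not. The authors deposited raw counts per gene and FPKM per gene. Per the submitters' processing notes the build was mm10 and the tools named are CASAVA 1.8.4, STAR 2.5.3a, featureCounts with Subread 1.4.6-p3, and DESeq2 1.14.0; how they treated reads with several matches is not stated there. The transcript length implied by counts and FPKM had a median ratio of 1.01 to the summed exon length in GENCODE release M21.

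Means and SDs were taken over the 3 libraries with pandas 2.3.3. The common dispersion came from edgeR 4.0.16 in R 4.3.3 with TMM scaling and the filter on low counts. It was also run on simulated counts with the same spread for every gene, leaving out genes set to change. That run cannot show how the estimate behaves where spread differs between genes or libraries. DESeq2 1.42.0 size factors were an alternative, as were other FPKM thresholds, raw counts, gene filters and each library left out. Symbols were matched to GENCODE M21 (48082 of 52459). Shared words are 31-base words of either strand found in GENCODE transcripts of another gene, overlapping genes included. Promoter windows are from RefSeq (GRCm38.p6).

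No test was made: there is 1 group. The rule for naming took the 40 highest genes by FPKM and 10 by counts, and up to 6 highest and the uncounted members of each of 51 lists. It also took the 3 highest of each of 55 symbol families and every member of 30 isozyme sets. Last came the 10 steadiest and 10 most variable genes at 20 FPKM or more. Not every gene the rule took is described: Tyrobp and Gpnmb, for example, are among the 40 highest and are left out. Other genes named, such as Marco, Retnla, Mir223, Rn7s2 and the lower members of lists and of the mitochondrial set, were chosen after their values were seen, as was GGAAGT among the motifs. The members and lists were chosen with earlier results of these data known, and 3 family patterns were tightened to leave out Tradd, Il1rn and Grina.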

Additional observations from a re-analysis of the deposited data

How the results depend on the processing

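The number of genes at 1 FPKM or more, 10810, was 12310 at 0.5 FPKM, 6653 at 5 FPKM, 10453 when each library had to reach 1 FPKM, 12050 at 1 CPM after TMM scaling, and 10779 to 10821 with a library left out. Genes without counts, 27171, became 32748 with fewer than 3 counts allowed, 35932 for a mean under 0.1 FPKM, and 28249 to 28447 with a library left out. The share of the 100 highest genes, 50.9%, was 30.4% of raw counts, 50.1% without mitochondrial genes, 51.2% over genes at 1 FPKM or more, and 50.6% to 51.2% with a library left out. The 90 genes holding 50% became 543 by raw counts, 99 without mitochondrial genes, and 87 to 94 with a library left out. The common coefficient of variation, 8.69%, was 8.68% with DESeq2 size factors, 8.88% without the filter on low counts, and 6.62% to 12.1% with a library left out. The median SD of log2 FPKM, put on the same percent scale, was 3.91% with a pseudocount of 1 and 5.52% with 0.1; these are medians over genes and not common estimates. Counts of members at 1 FPKM or more in the 106 lists and families, an alternative added after seeing the data, moved by over 1.5 times in 30 of them at 5 FPKM, in 10 at 0.5 FPKM, in 4 when each library had to reach 1 FPKM, and in 1, 1 and 0 without replicates 1, 2 and 3. No paired analysis was possible because no result comes from a test between groups. With 3 libraries no outlier test was made, and a gene with no count may hold up to 3 counts over the 3 libraries together.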
